A study of Homo sapiens with 24 samples.

Results

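The expression of 10 epithelial antimicrobial and acute-phase genes was followed across 24 RNA-seq libraries from pancreas cell lines, out of 48162 genes in the deposited tables. The genes were LCN2, DEFB4A, SAA1, SAA2, S100A8, S100A9, PI3, SLPI, C3 and CFB. They were taken by gene symbol, and they were chosen with earlier results of these libraries known. In those results LCN2 and DEFB4A were higher in HPDE cells kept in residual medium than in fresh medium. Which other values were looked at is not recorded, and residual against fresh medium in HPDE was taken as the choosing comparison. That comparison is therefore given as a description, with no test, for these genes. The study asked what vesicles from pancreatic cancer cells do to normal pancreas cells. The recipients were hTERT-HPNE (HPNE), a pancreas line immortalised with telomerase, and HPDE-H6c7 (HPDE), a pancreatic duct line immortalised with papillomavirus genes. Each line was kept for 24 h in 1 of 4 conditions. These were fresh serum-free medium (untreated), residual medium left from the vesicle isolation as the negative control, and extracellular vesicles (EVs) of PANC-1 or of PPCL-68 cells, each at 1e10 per well. All 8 groups grew in the same serum-free keratinocyte medium with antibiotics before treatment, and each had 3 libraries. PANC-1 is an established human pancreatic carcinoma line, and the labels describe PPCL-68 only as a pancreas cancer source. The series' text calls the replicates biological, and each recipient is a single line, so the spread within a group is between cultures of 1 line.

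Epithelia defend themselves with secreted proteins that starve, permeabilise or coat microbes, and with inhibitors that protect tissue from neutrophil proteases. LCN2 (lipocalin-2) binds bacterial siderophores and so withholds iron, DEFB4A encodes beta-defensin 2, a cationic peptide that disrupts microbial membranes, and S100A8 with S100A9 form calprotectin, which sequesters zinc and manganese. PI3 (elafin) and SLPI are small inhibitors of neutrophil elastase, SAA1 and SAA2 are serum amyloid A apolipoproteins of the acute phase, C3 is the central complement component, and CFB is the protease subunit of the alternative pathway convertase. Many of these genes are textbook targets of NF-kB, C/EBP and STAT3 downstream of IL-1, IL-17 and IL-6 signalling.

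The sequence upstream of LCN2 and S100A9 is shown because, against residual medium, LCN2 rose with both kinds of vesicle in HPDE and S100A9 passed the test with neither. RefSeq promoter entries (GRCh38.p14) were used for 4 of the 10 genes, LCN2, S100A8, S100A9 and CFB. The remaining genes were left out of the motif search, which does not mean that RefSeq lacks entries for them. The 250 bases before the start site are printed for LCN2 (chr9:128149203-128149452, plus strand) and S100A9 (chr1:153357604-153357853, plus strand), with matches to 4 searched motifs in capitals.
LCN2: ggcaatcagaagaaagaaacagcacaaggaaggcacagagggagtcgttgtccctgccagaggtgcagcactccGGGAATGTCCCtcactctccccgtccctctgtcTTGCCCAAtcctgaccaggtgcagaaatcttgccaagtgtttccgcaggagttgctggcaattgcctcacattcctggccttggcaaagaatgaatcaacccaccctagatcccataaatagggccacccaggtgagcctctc
S100A9: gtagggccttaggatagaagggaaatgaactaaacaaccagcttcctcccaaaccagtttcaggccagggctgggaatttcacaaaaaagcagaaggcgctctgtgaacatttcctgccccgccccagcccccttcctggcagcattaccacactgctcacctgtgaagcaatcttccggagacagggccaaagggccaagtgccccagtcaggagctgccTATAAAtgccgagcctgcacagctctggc
The motifs were GGG and CC with any 5 bases between them for NF-kB, TTGCNNAA for C/EBP, TTCNNNGAA for STAT factors and TATAAA for the TATA box, each searched on both strands. In LCN2 the NF-kB motif matched at -176 to -167 from the start site, with an overlapping match on the other strand at -175 to -166, and the C/EBP motif matched at -143 to -136. In S100A9 only the TATA box matched, at -29 to -24. The windows not printed held matches too. In CFB the NF-kB motif matched at -185 to -176, -112 to -103, -111 to -102 and -62 to -53. The STAT motif matched there at -92 to -84 and the TATA box at -30 to -25. CFB did not exceed 0.136 FPKM in any library. An S100A8 window matched the NF-kB motif at -48 to -39 and the TATA box at -126 to -121. Whether matches go with the response to vesicles was not tested. Among 35116 RefSeq promoter windows, which run from 250 bases before to 50 bases after the start, 58.67% held the NF-kB motif, 10.46% the C/EBP motif, 7.66% the STAT motif and 11.53% the TATA box. A match is a description of these letters, not a bound site.

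SAA1 and SAA2 are near copies, which matters for reading their values apart. Their coding sequences in GENCODE release 29 (GRCh38) are 369 bases each, differ at 11 bases (97.02% identical) and share an identical run of 186 bases. The stretch from coding base 205 to 324 carries 10 of the 11 differences, shown in capitals, so that reads of the remaining coding sequence can be told apart at 1 base only.
SAA1: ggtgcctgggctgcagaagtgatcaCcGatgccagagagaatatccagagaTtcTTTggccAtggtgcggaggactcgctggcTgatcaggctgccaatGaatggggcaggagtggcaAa
SAA2: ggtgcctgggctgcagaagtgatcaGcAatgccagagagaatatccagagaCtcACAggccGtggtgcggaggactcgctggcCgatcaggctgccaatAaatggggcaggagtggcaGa
DEFB4A likewise has a copy, DEFB4B, whose 195 coding bases differ from it at 1 base (99.49% identical). SAA2 also overlaps the read-through transcript SAA2-SAA4 on the same strand, which had 0 reads in all 24 libraries. How the counting treated reads shared between copies or overlapping genes is not given in the sources used here, so SAA2 and DEFB4A levels are uncertain in that respect.

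In hg19, the build named in the submitters' processing notes, LCN2 (ENSG00000148346) lies on the plus strand of chromosome 9 at 130911350 to 130915734. SAA1 (ENSG00000173432, chromosome 11, 18287721 to 18291524, plus strand) and SAA2 (ENSG00000134339, 18260770 to 18270190, minus strand) are neighbours on chromosome 11. S100A9 (ENSG00000163220, 153330330 to 153333503) and S100A8 (ENSG00000143546, 153362508 to 153363664) lie close together on chromosome 1. PI3 (ENSG00000124102, 43803517 to 43805185) and SLPI (ENSG00000124107, 43880880 to 43883205) do so on chromosome 20. C3 (ENSG00000125730) lies on chromosome 19 at 6677715 to 6730573 and overlaps GPR108 by 649 bases on the same strand. CFB (ENSG00000243649) lies on chromosome 6 at 31895475 to 31919861. Its symbol had a second entry at the same locus, with 0 reads in every library, and it overlaps C2 as well, so its low values may lack reads that overlap those entries; that loss was not tested.

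Levels are given in FPKM, reads scaled to the gene's length and to the library's reads, so they compare genes per length. Reads assigned to genes ranged from 29874928 to 46490312 in HPNE and from 29209142 to 42206773 in HPDE libraries, which puts 3 reads, the floor used for detection, at 0.0641 to 0.0926 FPKM for LCN2 in HPDE. In the HPDE libraries 10 epithelial markers summed to 1927 to 5310 FPKM. That sum was lower with vesicles, 2646 to 3011 FPKM with PANC-1 EVs and 1927 to 2002 with PPCL-68 EVs against 4353 to 4998 in residual medium and 5032 to 5310 untreated, and its part in the results below was not tested. The markers did not all move alike. KRT19 averaged 955 FPKM untreated, 1048 in residual medium, 426 with PANC-1 EVs and 326 with PPCL-68 EVs. EPCAM averaged 150, 187, 171 and 181 in the same order, and CDH1 stayed between 44.9 and 56.6 in all HPDE libraries. In HPNE the same 10 markers summed to 4.76 to 13.8 FPKM, 7 of them never reached 1 FPKM, and EPCAM did not exceed 0.162 FPKM, while 8 mesenchymal markers summed to 9474 to 14965 FPKM. Neutrophils and hepatocytes are major sources of several of these proteins in the body. In HPDE, 8 of 12 neutrophil and myeloid markers never exceeded 3 reads, ELANE and LILRB2 had 0 reads throughout, and 11 of 12 never reached 1 FPKM. That list summed to 1.25 to 2.30 FPKM untreated, 1.84 to 2.45 in residual medium, 0.649 to 1.05 with PANC-1 EVs and 0.611 to 1.39 with PPCL-68 EVs, with CD14 reaching 2.07 FPKM, and its part in the results was not tested. The 8 hepatocyte markers summed to 0.327 FPKM or less in HPDE and 6 acinar markers to 0.0429 or less. In HPNE, 1 library of each group lay apart from the other 2 over all genes (untreated replicate 3, residual replicate 3, PANC-1 EV replicate 1 and PPCL-68 EV replicate 1), at a distance 2.05 to 3.31 times that within the nearer pair; the same ratio in HPDE was 1.08 to 1.24.

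These genes were largely those of the HPDE line. Over its 12 libraries LCN2 averaged 147 FPKM, SAA1 96.2, C3 75.1, S100A9 51.1, SLPI 37.0, DEFB4A 14.3, PI3 12.1, SAA2 9.22, S100A8 0.926 and CFB 0.0671. In HPNE only SAA1, at a mean of 27.6 FPKM, and C3, at 4.76, averaged at least 1 FPKM. LCN2 reached at most 0.145 FPKM in HPNE and exceeded 3 reads in 2 of 12 libraries. DEFB4A and PI3 exceeded 3 reads in none of the 12, SLPI and S100A8 in 1, and S100A9 and CFB in 3 each, with a highest level of 0.410 FPKM for S100A9. In bulk libraries, fewer cells making a transcript and less of it per cell cannot be told apart.

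The order of the genes differed between conditions in HPDE. Untreated cells had SAA1 first, at 45.1 ± 1.1 FPKM (SD, n = 3), and C3 next to it at 42.8 ± 1.5, with their ranges of 44.1 to 46.4 and 41.9 to 44.6 overlapping. S100A9 followed at 33.0 ± 2.1, SLPI at 18.3 ± 2.3 and LCN2 at 10.7 ± 1.3. SAA2 (2.69 ± 0.94) and PI3 (2.64 ± 0.42) overlapped, and DEFB4A stood at 1.18 ± 0.50. In residual medium the order began with SAA1, C3 and LCN2, whose ranges of 77.1 to 86.2 for C3 and 74.3 to 78.3 for LCN2 overlapped. With either kind of vesicle LCN2 was first, and its lowest library, at 228 FPKM, stood above the highest SAA1 library, at 150.

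**Figure D1:**
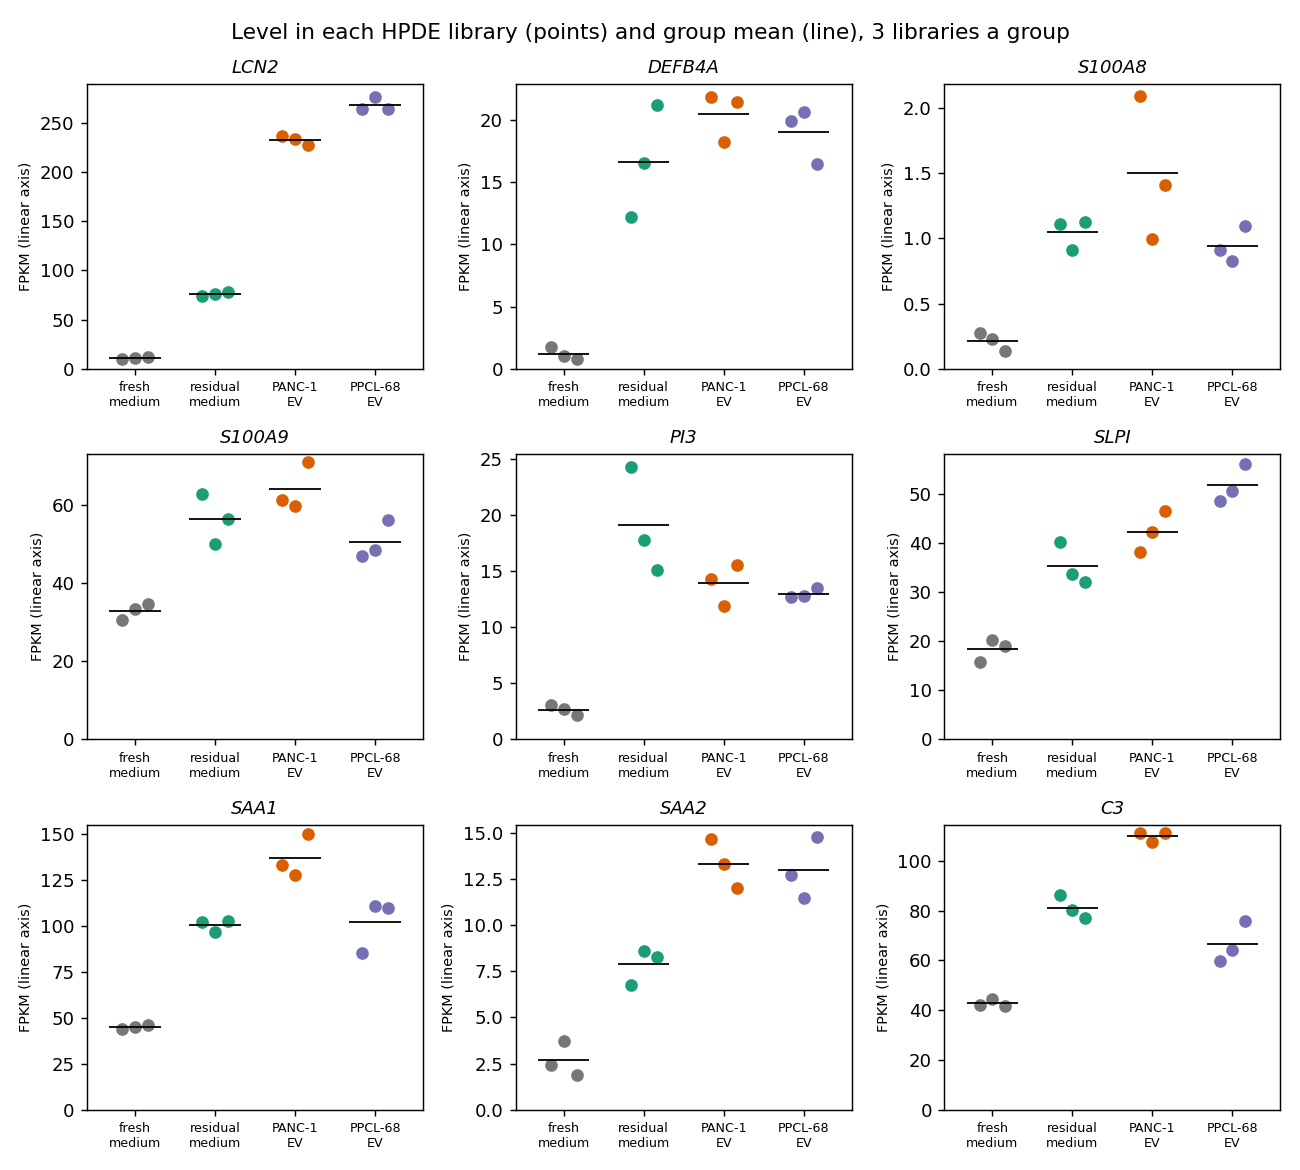
Level of 9 of the 10 genes in each HPDE library (points, FPKM on a linear axis starting at 0, a separate scale for each gene) by condition, with the group mean as a line (n = 3). LCN2 steps up from 10.7 to 76.1 FPKM between fresh and residual medium and again to 233 and 269 with vesicles, whereas DEFB4A and PI3 show their step at residual medium; CFB, at no more than 0.136 FPKM, is not drawn.

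Residual medium, the negative control, went with higher levels of every member that averaged at least 1 FPKM in HPDE, although it was added without isolated vesicles. All 8 genes that passed the filter of a mean of 1 FPKM over the HPDE libraries, which also averaged at least 1 FPKM untreated, were higher in each residual library than in each untreated one. Of all 12223 genes tested, 18.3% had such a separation in that direction, and 9.93% were called higher and 10.1% lower by limma at an adjusted p under 0.05. Because these genes were selected on this contrast, nothing is read from their count. Their median log2 difference was 1.22, against -0.01 over all genes tested.

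The steepest of these differences was in the beta-defensin. DEFB4A was at 1.74, 0.998 and 0.786 FPKM in the untreated libraries and at 12.2, 16.5 and 21.2 in the residual ones, a 14.1-fold higher mean. The untreated values rest on 12 to 20 reads, and the 3 residual libraries were spread widely. The copy DEFB4B had 0.299, 0.143 and 0 FPKM untreated and 2.79, 1.71 and 2.87 in residual medium, so the sum of both copies ran from 0.786 to 2.04 and from 15.0 to 24.1 FPKM. PI3 was at 3.04, 2.67 and 2.20 FPKM untreated and 24.3, 17.8 and 15.1 in residual medium, 7.23-fold higher. LCN2 was at 9.47, 10.6 and 12.04 FPKM untreated and 74.3, 75.7 and 78.3 in residual medium, 7.11-fold higher. The LCN2 libraries of each group lay close together, while those of PI3 and DEFB4A were spread more widely in residual medium.

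The other members differed less in this comparison. SAA2 was at 2.43, 3.73 and 1.90 FPKM untreated and 6.79, 8.62 and 8.26 in residual medium (2.93-fold), and SAA1 at 44.1, 44.9 and 46.4 against 102, 96.6 and 103 (2.23-fold). SLPI was at 15.8, 20.2 and 19.0 against 40.3, 33.8 and 32.1 FPKM (1.93-fold), and C3 at 42.0, 44.6 and 41.9 against 86.2, 80.1 and 77.1 (1.90-fold). S100A9 was at 30.7, 33.4 and 34.8 against 62.9, 50.1 and 56.5 FPKM (1.71-fold). S100A8, the partner of S100A9 in calprotectin, did not pass the filter. Its 0.277, 0.231 and 0.139 FPKM untreated rest on 4 to 7 reads, and its 1.11, 0.912 and 1.12 in residual medium on 23 to 31. S100A9 exceeded S100A8 by 111 to 251 times untreated and by 50.3 to 56.7 times in residual medium. CFB was at 0.0367 to 0.0513 FPKM untreated and 0.0367 to 0.0539 in residual medium, on 5 to 7 reads a library, and no difference was detectable at that depth.

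Against residual medium, vesicles went with a further rise in LCN2 from both sources, while the other members rose, fell or did not pass. These comparisons share the residual libraries with the contrast taken as the one that chose the genes. Whether their own values were also seen in that choice is not recorded, so their adjusted p-values give no independent support. PANC-1 EVs raised 5 of the 8 tested members and lowered 1 at an adjusted p under 0.05. Among all 12223 genes tested, 28.2% rose and 35.1% fell, and the members' median log2 difference was 0.37 against -0.04 over all genes. PPCL-68 EVs raised 3 and lowered 2, where 31.3% of all genes rose and 36.4% fell, with a median of 0.11 against -0.03. Each log2 difference is one of log2(FPKM + 1), which understates changes of low genes, with the SE of the limma fit and a p adjusted over all genes tested.

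LCN2 was at 236, 234 and 228 FPKM with PANC-1 EVs and 265, 277 and 265 with PPCL-68 EVs, and neither group overlapped the residual libraries. The means were 3.06 and 3.53 times the residual mean, with log2 differences of 1.60 (SE 0.06, adjusted p = 5.01e-11) and 1.81 (SE 0.06, adjusted p = 1.03e-11). Against untreated cells the means were 21.7 and 25.1 times higher. The LCN2 differences ranged from 1.58 to 1.63 and from 1.79 to 1.84 over 12 alternative analyses each.

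The beta-defensin and the more abundant calprotectin transcript, S100A9, passed with neither source. DEFB4A was at 21.9, 18.2 and 21.4 FPKM with PANC-1 EVs and 19.9, 20.6 and 16.5 with PPCL-68 EVs, and both groups overlapped the residual libraries. Its log2 differences were 0.31 (95% interval -0.05 to 0.68, adjusted p = 0.121) and 0.21 (-0.16 to 0.57, adjusted p = 0.294). Without residual replicate 3, its highest residual library, DEFB4A passed the threshold for both sources, at 0.50 (adjusted p = 0.018) and 0.39 (adjusted p = 0.0496). S100A9 was at 61.4, 59.9 and 71.1 FPKM with PANC-1 EVs and 47.1, 48.5 and 56.4 with PPCL-68 EVs, also overlapping the residual libraries. Its differences were 0.18 (adjusted p = 0.084) and -0.15 (adjusted p = 0.136). The PANC-1 difference passed without residual replicate 1 (0.26, adjusted p = 0.0221) and with size factors (adjusted p = 0.0417), and the PPCL-68 difference without residual replicate 2 (-0.24, adjusted p = 0.0303) or PPCL-68 EV replicate 3 (-0.23, adjusted p = 0.037). S100A8 read 2.09, 0.997 and 1.41 FPKM with PANC-1 EVs and 0.907, 0.826 and 1.09 with PPCL-68 EVs, around the residual values, and was not tested.

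The antiproteases moved in opposite directions. PI3 fell with both kinds of vesicle, to 14.2, 11.9 and 15.5 FPKM with PANC-1 EVs (log2 difference -0.41, SE 0.13, adjusted p = 0.0152) and 12.7, 12.7 and 13.4 with PPCL-68 EVs (-0.50, SE 0.13, adjusted p = 0.00435). The PANC-1 libraries overlapped the residual ones by 1 library, and the call was lost without PANC-1 EV replicate 2 (adjusted p = 0.0749) or residual replicate 1 (-0.23, adjusted p = 0.0853), and with no filter (adjusted p = 0.0795), whereas the PPCL-68 libraries all lay below them. SLPI rose with both, to 38.2, 42.2 and 46.6 FPKM with PANC-1 EVs (0.25, SE 0.10, adjusted p = 0.0345) and 48.6, 50.6 and 56.2 with PPCL-68 EVs (0.54, SE 0.10, adjusted p = 0.000191). The PANC-1 call for SLPI was lost without PANC-1 EV replicate 2 or 3 or residual replicate 2 or 3, and with no filter (adjusted p from 0.0685 to 0.146), and its libraries overlapped the residual ones. In the PPCL-68 comparison all SLPI libraries lay above the residual ones.

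SAA2 rose with both sources, SAA1 with PANC-1 EVs, and C3 rose with one and fell with the other. SAA2 rose with both, to 14.7, 13.3 and 12.01 FPKM with PANC-1 EVs (0.69, SE 0.14, adjusted p = 0.000789) and 12.7, 11.5 and 14.8 with PPCL-68 EVs (0.65, SE 0.14, adjusted p = 0.00103). SAA1 rose with PANC-1 EVs to 133, 128 and 150 FPKM (0.44, SE 0.08, adjusted p = 0.000343), and with PPCL-68 EVs it was at 85.4, 111 and 110, around the residual level (0.01, 95% interval -0.17 to 0.19, adjusted p = 0.905). SAA2 stood at 0.0665 to 0.0893 of the SAA1 level in residual medium, 0.0800 to 0.110 with PANC-1 EVs and 0.103 to 0.149 with PPCL-68 EVs. C3 rose with PANC-1 EVs to 111, 107 and 111 FPKM (0.43, SE 0.07, adjusted p = 7.68e-05) and fell with PPCL-68 EVs to 59.9, 64.1 and 75.7 (-0.29, SE 0.07, adjusted p = 0.00194), with no overlap in either case. CFB reached 0.136 FPKM, on 18 reads, in 1 PANC-1 EV library and was otherwise at 0.111 or below.

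**Figure D2:**
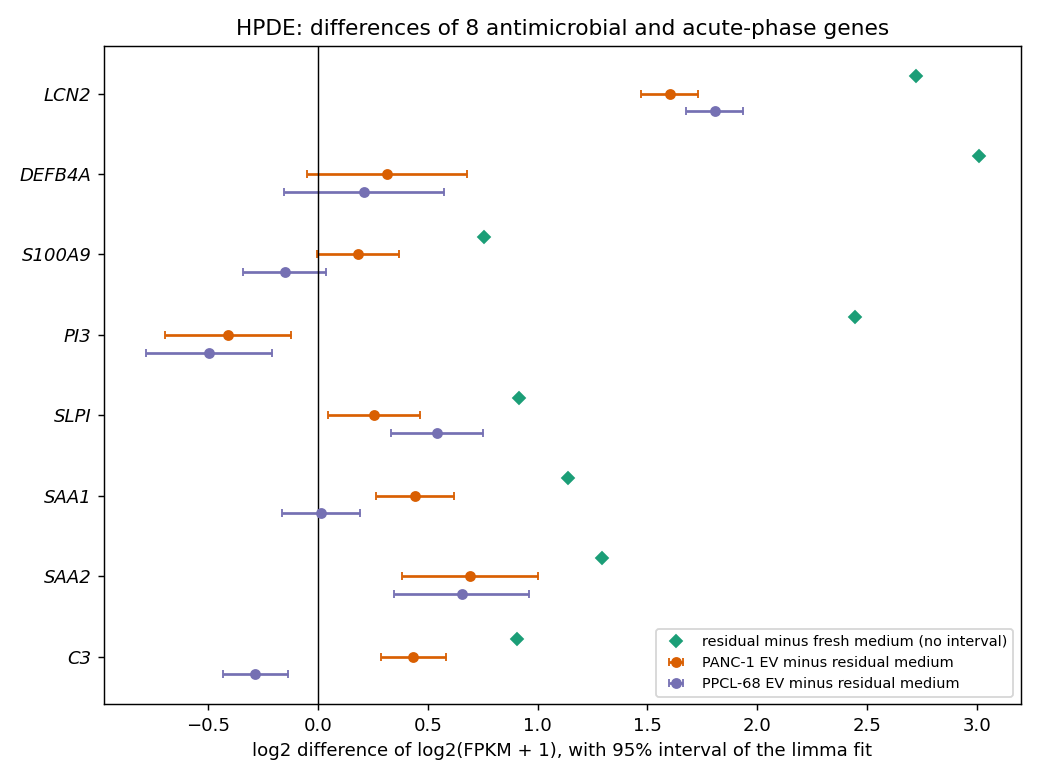
Log2 difference of log2(FPKM + 1) in HPDE for 8 genes (rows), with residual minus fresh medium as diamonds without an interval, and vesicles minus residual medium as circles with the 95% interval of the limma fit (n = 3 libraries a group). LCN2 has both vesicle intervals well above 0, PI3 has both below 0, and C3 has its PANC-1 interval above and its PPCL-68 interval below 0.

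The 2 vesicle sources were also compared with each other, a comparison that shares no library with residual minus untreated; whether its values were also seen when the genes were chosen is not recorded. With PANC-1 EVs, C3 was higher than with PPCL-68 EVs by 0.72 on the log2 scale (SE 0.07, adjusted p = 1.3e-06), SAA1 by 0.43 (SE 0.08, adjusted p = 0.000703) and S100A9 by 0.34 (SE 0.09, adjusted p = 0.00572). LCN2 was lower with PANC-1 EVs (-0.21, SE 0.06, adjusted p = 0.0123), as was SLPI (-0.29, SE 0.10, adjusted p = 0.0243). In each of these 5 genes the libraries of the 2 sources did not overlap, a separation that was not counted over all genes. SLPI lost the call without PANC-1 EV replicate 1 (adjusted p = 0.105) or 2 (adjusted p = 0.0533) or PPCL-68 EV replicate 3 (adjusted p = 0.1), and with no filter (adjusted p = 0.109). The 95% intervals of the remaining 3 were -0.26 to 0.47 for DEFB4A, -0.27 to 0.35 for SAA2 and -0.20 to 0.37 for PI3. Among all genes tested 25.2% were higher and 24.9% lower with PANC-1 EVs.

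Against untreated HPDE, all 8 tested members were higher with each kind of vesicle, with no overlap. The share of all genes with no overlap was not computed here, so nothing is read from that separation. In these comparisons 26.3% of all genes rose and 34.4% fell with PANC-1 EVs, and 30.1% rose and 36.1% fell with PPCL-68 EVs. The members' median log2 differences were 1.78 and 1.70. These comparisons share the untreated libraries with the contrast taken as the one that chose the genes, and so give no independent support for a direction. After LCN2, the largest were in DEFB4A, 17.4-fold with PANC-1 EVs and 16.2-fold with PPCL-68 EVs, and the smallest were in S100A9, 1.94-fold and 1.54-fold.

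In HPNE only SAA1 and C3 passed the filter, and both were higher in every residual library than in every untreated one. That separation was not counted over all HPNE genes. C3 averaged 0.245 FPKM untreated and passed only through the other 3 groups, so its differences from untreated cells are given as a description, with no test. SAA1 was at 19.5, 24.0 and 10.4 FPKM untreated and 31.3, 29.2 and 89.0 in residual medium (log2 difference 1.31, SE 0.42, adjusted p = 0.0273). The SAA1 call was lost with no filter (adjusted p = 0.0737), with only the libraries compared (adjusted p = 0.0735), and without residual replicate 3 (0.80, adjusted p = 0.0679), untreated replicate 1 (adjusted p = 0.0551) or untreated replicate 3 (adjusted p = 0.0903). C3 was at 0.386, 0.261 and 0.0895 FPKM untreated and 3.59, 2.38 and 12.4 in residual medium (log2 difference 2.26). In each gene 1 residual library, replicate 3, stood far above the other 2. Among 11503 genes tested in HPNE, 43.9% changed in either direction in this comparison. Leaving out the 4 HPNE libraries that lay apart, an alternative chosen after seeing the data that also narrows the spread, the differences were 0.46 for SAA1 (adjusted p = 0.00226) and 1.58 for C3.

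With vesicles, every C3 library in HPNE was above every untreated one, and SAA1 did not pass against untreated cells. C3 was at 4.28, 5.58 and 4.69 FPKM with PANC-1 EVs and 13.5, 4.21 and 5.83 with PPCL-68 EVs. Against untreated cells its log2 differences were 2.23 and 2.69. SAA1 was at 18.2, 17.5 and 14.4 FPKM with PANC-1 EVs and 38.2, 19.9 and 19.3 with PPCL-68 EVs, with differences from untreated cells of -0.03 (adjusted p = 0.969) and 0.50 (adjusted p = 0.356), in comparisons where 21.1% and 42.5% of all genes changed. Without the 4 libraries that lay apart SAA1 was lower with PANC-1 EVs than untreated (-0.42, adjusted p = 0.00494).

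Against residual medium, SAA1 in HPNE fell with PANC-1 EVs (-1.33, SE 0.42, adjusted p = 0.0404) and did not pass with PPCL-68 EVs (-0.80, SE 0.42, adjusted p = 0.15). The PANC-1 call was not stable: blocking on the replicate number gave an adjusted p of 0.0651, and it exceeded 0.05 with no filter (0.118), with only the libraries compared (0.0708), and without any of the 3 PANC-1 EV libraries (0.0742 to 0.103), residual replicate 1 (0.0539) or residual replicate 3, where the difference was -0.82 (adjusted p = 0.075). C3 did not pass against residual medium with PANC-1 EVs (-0.02, 95% interval -1.03 to 0.98, adjusted p = 0.974) or PPCL-68 EVs (0.44, -0.57 to 1.44, adjusted p = 0.475). Residual replicate 3 decided these C3 values, which were 0.56 (adjusted p = 0.214) and 1.03 (adjusted p = 0.0313) without it. Without the 4 libraries that lay apart, SAA1 fell with both sources (-0.89, adjusted p = 4.87e-05, and -0.60, adjusted p = 0.000514) and C3 rose with both (0.64, adjusted p = 0.00754, and 0.60, adjusted p = 0.00899). Of all genes tested, 24.2% changed with PANC-1 EVs and 39.9% with PPCL-68 EVs. Between the 2 sources neither gene passed (SAA1 -0.53, adjusted p = 0.486, and C3 -0.46, adjusted p = 0.591), where 5.47% of all genes did.

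SAA2 was too low in HPNE to be tested, at a mean of 0.672 FPKM. It had 0 to 1 read in each untreated library and 41 to 65 reads in each residual one, at 1.48, 1.21 and 1.99 FPKM. With PANC-1 EVs SAA2 read 0.262, 0.253 and 0.191 FPKM and with PPCL-68 EVs 1.21, 0.917 and 0.481. The 4 groups did not overlap, although the highest PPCL-68 EV library (47 reads) and the lowest residual one (41 reads) both round to 1.21 FPKM.

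**Figure D3:**
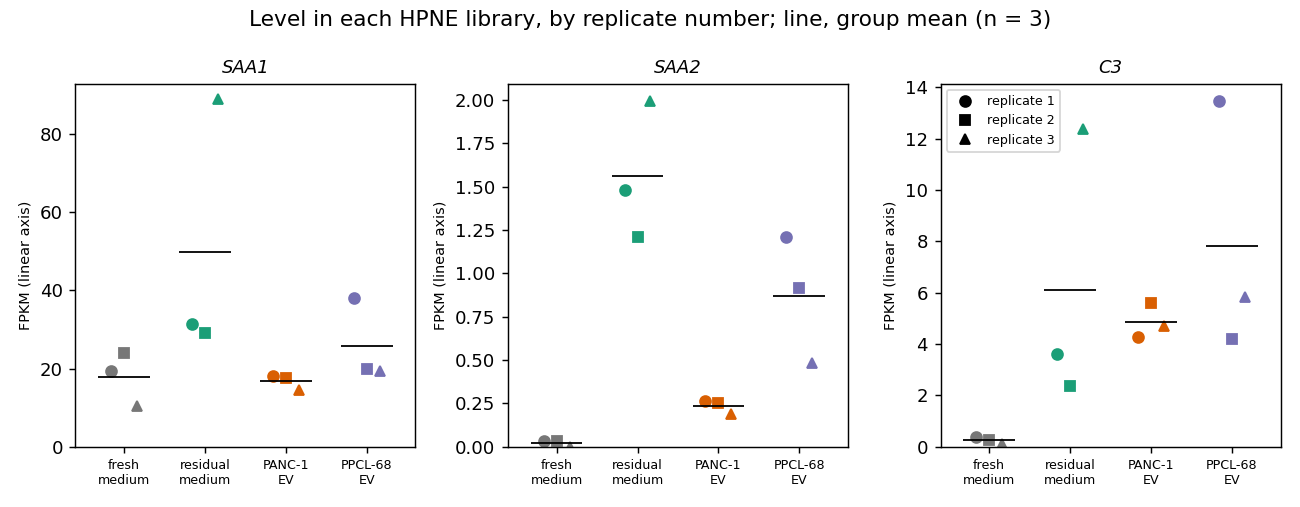
Level of SAA1, SAA2 and C3 in each HPNE library (FPKM on a linear axis, a separate scale for each gene) by condition, with the marker showing the replicate number and the line the group mean (n = 3). Residual replicate 3 is the highest SAA1 library, at 89.0 FPKM, and the PANC-1 EV libraries of SAA2 sit between the untreated and the residual ones.

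The difference between the lines was itself tested for SAA1 and C3, over 24 libraries and 10483 genes. The SAA1 response to PANC-1 EVs against residual medium was higher in HPDE than in HPNE by 1.77 on the log2 scale (SE 0.45, adjusted p = 0.0102), from a rise of 0.44 in HPDE and a difference of -1.33 in HPNE, and the C3 response did not differ detectably (0.46, 95% interval -0.56 to 1.48, adjusted p = 0.533). Of all genes tested, 18.2% differed between the lines in this response. For PPCL-68 EVs neither passed (SAA1 0.81, adjusted p = 0.208, and C3 -0.73, adjusted p = 0.305), where 23% of all genes did. Without HPNE residual replicate 3 the C3 difference for PPCL-68 EVs was -1.31 (adjusted p = 0.00604).

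More genes of the signalling pathways upstream rose than fell in HPDE. This list and those below were chosen with earlier results of these data known. Their counts are therefore descriptions only, and the adjusted p-values of their genes give no independent support. The list of NF-kB, IL-17, IL-1 and IL-6 pathway genes had 34 entries, of which 29 were measured. In residual medium 16 rose and 2 fell, where 9.93% of all genes rose and 10.1% fell, with a median log2 difference of 0.36 against -0.01 over all genes. IL6 and IL1R1 averaged 0.464 and 0.968 FPKM untreated and passed the filter only through the other groups. Nothing is read from their part in this comparison. IL36G, an IL-1 family cytokine of epithelia, went from 1.12 ± 0.09 to 7.69 ± 0.28 FPKM (2.04, adjusted p = 8.64e-10), IL1B from 101 to 350 FPKM (1.78, adjusted p = 8.64e-10) and SOCS3, the feedback inhibitor of STAT3 signalling, from 7.09 to 19.6 (1.35, adjusted p = 1.8e-08). The falls were in the IL-6 receptor subunit IL6R (-0.54) and in TLR3 (-0.22, adjusted p = 0.0444), a call lost in 9 alternatives including the replicate block (adjusted p = 0.072).

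With PANC-1 EVs 21 of the 29 upstream genes rose against residual medium and 2 fell, and with PPCL-68 EVs 15 rose and 5 fell. Among all genes 28.2% rose and 35.1% fell with PANC-1 EVs, and 31.3% rose and 36.4% fell with PPCL-68 EVs; the list's medians were 0.52 and 0.21, against -0.04 and -0.03 over all genes. These shares apply to each list below. IL6 rose with PANC-1 EVs from 2.44 to 10.9 FPKM (1.80, adjusted p = 1.83e-09) and was at 2.96 with PPCL-68 EVs (0.21, adjusted p = 0.0678). IL1A rose with both, to 1569 and 997 FPKM from 666, and CEBPB, a C/EBP transcription factor, to 159 and 194 FPKM from 85.8. IL1B went the other way with PPCL-68 EVs, falling from 350 to 177 FPKM (-0.98, adjusted p = 2.62e-08), while it rose to 409 with PANC-1 EVs (0.23, adjusted p = 0.0129). IL6R, by contrast, rose to 9.68 FPKM with PPCL-68 EVs (1.23, adjusted p = 3.07e-09).

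**Figure D4:**
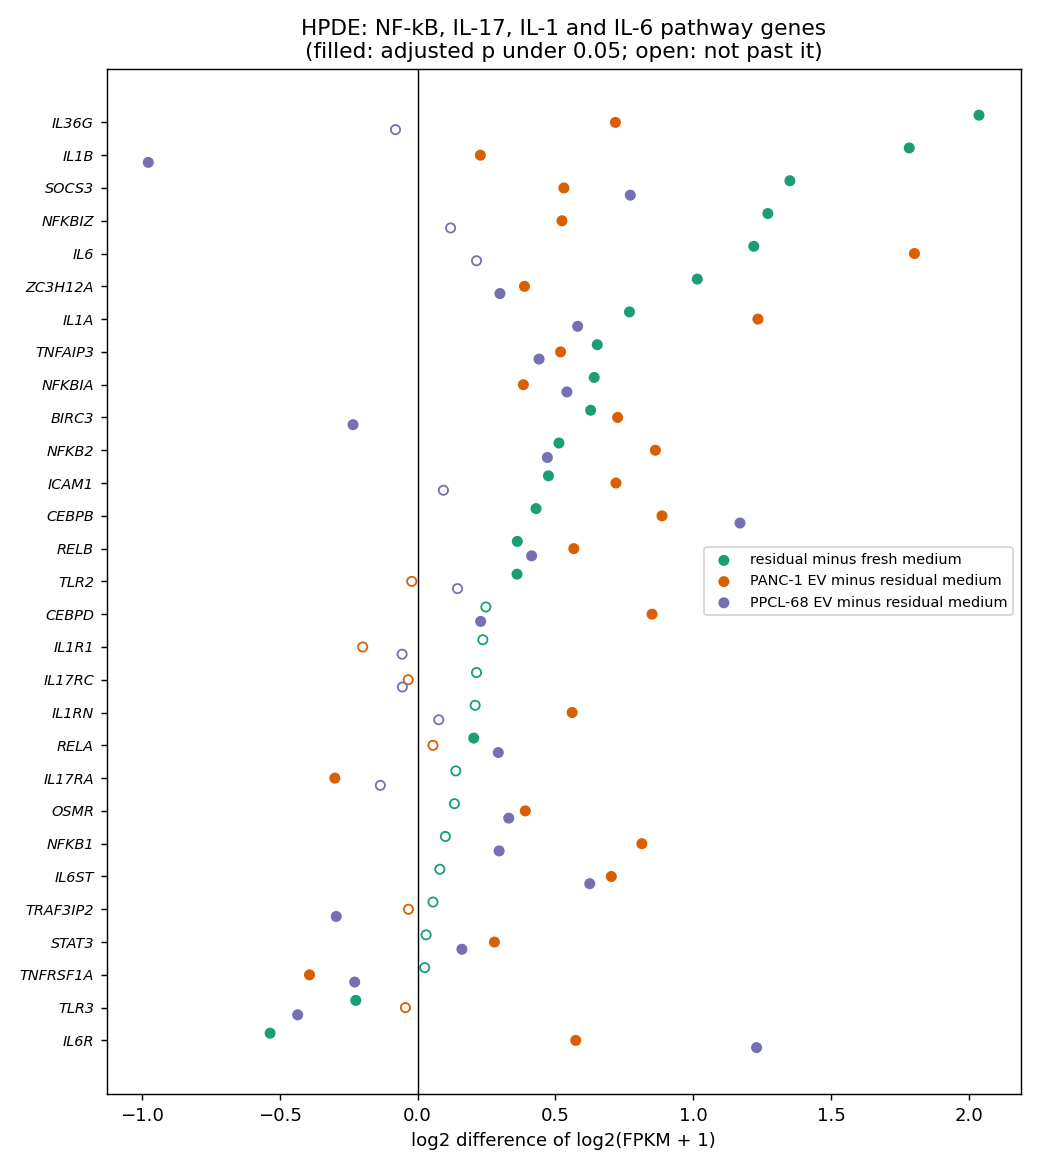
Log2 difference of log2(FPKM + 1) in HPDE for the 29 measured NF-kB, IL-17, IL-1 and IL-6 pathway genes (rows), for residual minus fresh medium and for each vesicle source minus residual medium; filled points passed an adjusted p of 0.05 in limma (n = 3 libraries a group). In residual medium 16 rose and 2 fell, and IL1B is the gene farthest to the left, at -0.98 with PPCL-68 EVs. The list was chosen with earlier results of these data known. IL6 and IL1R1 averaged 0.464 and 0.968 FPKM untreated and passed the filter only through the other groups.

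Other antimicrobial peptides and antiproteases were mostly low in HPDE, with 5 of 27 measured. In residual medium 3 rose, where 9.93% of all genes rose. Among the 3, DEFB4B, the copy of DEFB4A, averaged 0.147 FPKM untreated and passed the filter only through the other groups. Its call therefore supports nothing. The others were SERPINB1, an intracellular inhibitor of neutrophil proteases, from 10.8 to 26.9 FPKM (1.24), and RNASE7, a skin antimicrobial ribonuclease, from 22.1 to 25.6 FPKM (0.20, adjusted p = 0.0202). The RNASE7 call in that comparison was lost without untreated replicate 1 or residual replicate 2 or 3, and with no filter (adjusted p = 0.0657). With vesicles RNASE7 rose to 52.3 and 46.5 FPKM (1.00 and 0.84) and SERPINA1, the main plasma elastase inhibitor, from 5.45 to 14.6 and 15.5 FPKM (1.27 and 1.36). SERPINB1 fell with PPCL-68 EVs (-0.43, adjusted p = 2.66e-06) and by less with PANC-1 EVs (-0.13, adjusted p = 0.032), a call lost in 6 alternatives, among them size factors (adjusted p = 0.107).

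Of 30 other complement and acute-phase genes 8 were measured in HPDE. In residual medium 2 rose and 2 fell, where 9.93% of all genes rose and 10.1% fell, with a median of 0.08. CD55 (0.35) and CD59 (0.21), which protect cells from complement, rose, and clusterin (CLU, -0.28) was among those that fell. With PANC-1 EVs 5 rose and 1 fell, where 28.2% of all genes rose and 35.1% fell, and with PPCL-68 EVs 4 rose and 2 fell, near the 31.3% and 36.4% of all genes. CD55 rose from 14.5 to 38.5 and 41.7 FPKM (1.35 and 1.46), and the classical pathway proteases C1R and C1S rose with both sources, C1R from 5.38 to 10.2 and 7.58 FPKM. The membrane regulator CD46 fell with both (-0.43 and -0.34).

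The other S100 genes mostly fell or did not pass with vesicles. Of 13 listed 9 were measured, and in residual medium 1 rose (S100A16, 0.19, adjusted p = 0.0274) and 1 fell (S100A4, -0.42, adjusted p = 0.0407). These counts lie near the 9.93% and 10.1% of all genes. Both calls were lost with the replicate block, at adjusted p = 0.0543 and 0.0649, with no filter (0.104 and 0.159) and without some single libraries. The S100A4 groups overlapped, and its call was also lost with voom (adjusted p = 0.0652) and with only the libraries compared (0.0795). With PANC-1 EVs 7 of the 9 fell and with PPCL-68 EVs 5 fell, with none rising in either, where 35.1% and 36.4% of all genes fell, and with size factors 6 and 4 fell. S100A2 fell from 1758 to 741 and 630 FPKM (-1.27 and -1.49), S100A10 from 313 to 203 and 201 FPKM and S100A14 from 721 to 569 and 412 FPKM.

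Among 19 receptors and targets of the members 8 were measured in HPDE, 2 of which rose in residual medium, where 9.93% of all genes rose. MMP9, the protease that LCN2 binds and stabilises, rose from 12.6 to 21.8 FPKM (0.74, adjusted p = 0.00201) and further to 40.4 and 63.1 FPKM with PANC-1 and PPCL-68 EVs (0.87 and 1.49). PLSCR1, a partner of SLPI, rose in residual medium (0.24) and with PANC-1 EVs (0.35), and fell with PPCL-68 EVs (-0.14, adjusted p = 0.0196), a call that size factors removed (adjusted p = 0.0896). With PANC-1 EVs 3 rose and 1 fell, where 28.2% of all genes rose and 35.1% fell. With PPCL-68 EVs 2 rose and 2 fell, below the 31.3% and 36.4% of all genes. CR2 is among the genes that rose with both sources. It averaged 0.801 FPKM untreated and 0.973 in residual medium, and it passed the filter only through the vesicle groups. Its PPCL-68 EV libraries overlapped the residual ones. That call was lost with no filter (adjusted p = 0.096), with only the libraries compared (0.0632) and without some single libraries. Nothing is read from these counts.

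In HPNE, 15 of 26 measured upstream genes rose in residual medium and 3 fell, with IL1B going from 1.81 to 41.5 FPKM (3.86, adjusted p = 3.72e-06) and IL1R1 from 120 to 39.1 FPKM (-1.88, adjusted p = 0.0232). In this comparison 43.9% of all genes changed in either direction, and the list's median was 0.59 against -0.05 over all genes. IL6 averaged 0.270 FPKM untreated and passed the filter only through the other groups, so nothing is read from its part here. The IL1R1 call was lost without untreated replicate 1 or 2 or residual replicate 1 or 2 (adjusted p from 0.0716 to 0.0916), and with no filter (0.0649). Neither of the 2 measured defence peptides and antiproteases passed, and of the 9 complement and acute-phase genes none rose and 2 fell. Of 6 receptors and targets ANXA2 rose (1.05, adjusted p = 0.00678) and 4 fell, led by SCARB1 (-0.74, adjusted p = 0.00523). Of 7 other S100 genes 2 rose and 1 fell. The counts for complement and S100 genes lie at or below the 43.9% of all genes. S100A10 was the larger rise (0.73, adjusted p = 0.0416), in groups that overlapped. Its call was lost with the replicate block (adjusted p = 0.0545), no filter (0.102) and only the libraries compared (0.0758), and without some single libraries. S100A13 fell (-0.49, adjusted p = 0.00517).

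The genes whose level over the 12 HPDE libraries ran closest to each of 4 members differed by member. These are descriptions over libraries that share 4 group means, with Pearson's r of log2(FPKM + 1) and no test. SOCS3 (r = 0.991), the chemokine CXCL2 (0.991) and the NF-kB inhibitor NFKBIA (0.991) were closest to LCN2. IL32 (0.977), NFKBIA (0.970) and the metalloprotease ADAM8 (0.968) were closest to SLPI. The urokinase gene PLAU (0.982), the proteoglycan SDC4 (0.976) and the unconventional myosin MYO1E (0.966) were closest to C3, and RNF149 (0.981), PICK1 (0.972) and ARHGEF37 (0.971) to S100A9. By Spearman's rho the same 3 genes were closest to S100A9, and none of these 3 to LCN2, SLPI or C3. Within the members, r over the same libraries ran from 0.712 between SLPI and C3 to 0.969 between LCN2 and SAA2.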

How the data were processed

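RNA-seq libraries were made from total RNA with a non-directional kit, per the labels' protocols, so overlapping genes on opposite strands share reads. The submitters' processing notes name CASAVA, STAR, HTSeq and DESeq2 and the build hg19, with no versions or settings. The authors deposited 1 FPKM table per library, and its values came out as whole reads in 100% of cases (within 0.01 read), which gave the depth.

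Groups came from the sample titles. The 10 genes and the lists around them were chosen with earlier results of these data known, and which values were looked at is not recorded. Their adjusted p-values in any comparison may therefore rest on values already seen. log2(FPKM + 1), with a pseudocount of 1, was fitted with limma 3.58.1 (R 4.3.3; lmFit, eBayes with a trend), 12 libraries of a line in 1 fit, for genes with a mean of at least 1 FPKM. Tests were two-sided with Benjamini-Hochberg adjustment over all genes tested and a threshold of 0.05. Because the genes were chosen with residual minus untreated HPDE known, the planned test of that difference between the lines was not used for them. Intervals and floors cover counting or sampling error only.

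Named genes were all 10 members. From each list and contrast the rule named at most 3 called genes per direction, ordered by size of change, or 1 per direction in HPNE; a selection is printed, and 1 gene that the rule names is not reported here. The 3 genes with the highest Pearson r were taken for 1 member of each of 4 roles. Values of IL6, IL1A, C1R and C1S with PPCL-68 EVs and of IL1B with PANC-1 EVs, where not named by the rule, were added after they were seen. Titles share replicate numbers. The mean correlation of same-numbered deviations ran from -0.141 to 0.029 over HPDE comparisons and from -0.432 to 0.452 in HPNE, and only in HPNE PANC-1 against PPCL-68 EVs did all 3 pairs exceed 0.1 (0.565, 0.292 and 0.5). The block fit called 0 members in that comparison. Alternatives were a pseudocount of 0.1, no filter, size factors, only the libraries compared, the replicate block, limma voom on recovered reads and leaving out each library. The procedure was tested on simulated data.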

Additional observations from a re-analysis of the deposited data

Results flagged for a closer look

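The response of SAA1 to PANC-1 EVs against residual medium differed between the lines, by 1.77 on the log2 scale (HPDE minus HPNE, SE 0.45, limma adjusted p = 0.0102). SAA1 went from 100.6 ± 3.5 to 137 ± 11.5 FPKM (SD, n = 3) in HPDE and from 49.8 ± 33.9 to 16.7 ± 2.03 in HPNE. Over 19 alternatives the difference ran from 1.27 to 2.05 and kept its direction and its side of the threshold, and without the 4 HPNE libraries that lay apart it was 1.33 (adjusted p = 4.07e-07).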

How the results depend on the processing

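In HPDE the calls against untreated cells (8 of 8 members for each source), against residual medium and between sources stayed within 1.5 times under every alternative run. Leaving out 1 library each gave 4 to 6 calls for PANC-1 EVs minus residual (6 with all), 5 to 6 for PPCL-68 EVs (5) and 4 to 5 between sources (5). The other lists had 29 calls in HPDE residual minus untreated (25 to 31 without 1 library each, 26 with the replicate block), and 28 in HPNE (21 to 37, and 43 without the 4 libraries that lay apart). In HPNE, PANC-1 EVs minus residual gave 1 call, and 0 with no filter, with the replicate block or with only the libraries compared, 0 to 1 without 1 library each, and 2 without the 4 libraries that lay apart. HPNE residual minus untreated gave 2 calls, 1 of them C3, which passed the filter only through the other groups, 1 with no filter or only the libraries compared, and 1 to 2 without 1 library. HPNE PPCL-68 EVs minus residual, and its line difference, gave 0 calls, 0 to 1 without 1 library, and 2 without the 4. HPNE PANC-1 EVs minus untreated gave 1, again C3, and 2 without the 4. The cause of these changes was not tested. The replicate block changed no other count by over 1.5 times.

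Every value whose direction reversed was not called with all libraries and the settings of the report; of the reversed values, C3 in HPNE PANC-1 EVs minus residual was called without the 4 libraries (adjusted p = 0.00754). Without 1 library each, SAA1 in HPDE PPCL-68 EVs minus residual ran from -0.052 to 0.134, SAA2 in HPDE PANC-1 minus PPCL-68 EVs from -0.042 to 0.128, C3 in HPNE PANC-1 EVs minus residual from -0.43 to 0.56, SAA1 in HPNE PANC-1 EVs minus untreated from -0.36 to 0.21, and the C3 line difference for PANC-1 EVs from -0.13 to 0.86. C3 in HPNE PANC-1 EVs minus residual was 0.021 with a pseudocount of 0.1, 0.072 with voom and 0.64 without the 4 libraries. SAA1 in HPNE PANC-1 EVs minus untreated was 0.033 with size factors and 0.011 with voom. Without the 4, SAA1 in HPNE PPCL-68 EVs minus untreated was -0.14, C3 in HPNE PANC-1 minus PPCL-68 EVs 0.037, and the C3 line difference for PANC-1 EVs -0.20. Size factors moved the median of all genes by over 0.1 in HPNE residual minus untreated alone (-0.05 to 0.06). Few reads limit S100A8 and CFB in HPDE and all members but SAA1 and C3 in HPNE.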
